A study of Rattus norvegicus with 9 samples.

Results

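A set of 7 genes that mark or direct the Schwann cell lineage was followed in cultured rat Schwann cells: the transcription factor genes Sox10, Sox2, Pou3f1 and Foxd3, the endothelin receptor gene Ednrb, the cadherin gene Cdh19 and the calcium-binding protein gene S100b. The members are every probe set that the platform annotation pairs with exactly 1 of these genes, which gave 8 of 31042 probe sets and 5 of the 7 genes: 1 probe set each for Sox10, Pou3f1, Foxd3 and S100b, and 4 for Sox2. Ednrb and Cdh19 had no probe set named for them in the annotation used here and were not analysed. The cells were primary Schwann cells from rat sciatic nerve, in 3 groups of 3 replicates: cells transfected with RNAi oligonucleotides against NF1 and given the MEK inhibitor U0126 (NF1 RNAi + U0126), cells given the NF1 oligonucleotides alone (NF1 RNAi), and cells given scrambled oligonucleotides (Control RNAi). All were transfected transiently and harvested 48 hours later, and each of the 9 RNA samples was hybridised to 1 Affymetrix array. The inhibitor was read only in NF1 knockdown cells, since no U0126-treated control group is used here, and the Nf1 loss is a transient knockdown and not a mutation.

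Sox10 is the transcription factor that neural crest cells and all later stages of the Schwann lineage require. Foxd3 acts in the neural crest, Sox2 marks immature and dedifferentiated Schwann cells and holds back myelination, and Pou3f1 (also called Oct-6 or SCIP) marks the promyelinating stage and is induced by cyclic AMP in cultured cells. S100b encodes a calcium-binding protein that is the usual antibody marker of Schwann cells. Neurofibromin, the product of Nf1, switches Ras off, and MEK is the kinase below Ras that activates ERK.

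Levels are log2(intensity + 1), differences are log2 differences ± the standard error of a limma fit, and adjusted p-values are Benjamini-Hochberg values over all 31042 probe sets, with 0.05 as the threshold. Differences in level between probe sets are not read as differences in transcript amount, because probes differ in affinity. Array percentiles and summed intensities are given only as a rough guide to signal. Nf1 itself was lower in every array given NF1 oligonucleotides: 5.44, 5.72 and 5.39 in NF1 RNAi + U0126 cells and 5.39, 5.41 and 5.44 in NF1 RNAi cells, against 6.65, 6.59 and 6.15 in Control RNAi cells. This reading comes from 1 probe set, between percentiles 32.1 and 50.5 of its arrays, near where background weighs on the signal. Replicate 1 stood apart within every group. The SD of log2 differences over all probe sets was 0.205 to 0.358 between replicate 1 and another replicate of its group and 0.152 to 0.170 between replicates 2 and 3, and the distance was largest for Control RNAi replicate 1. Arrays with the same replicate number deviated from their group means together, but this set apart replicate 1 only. Among replicates 2 and 3, arrays of different numbers were as alike as arrays of the same number. Each result was also fitted with the number as a block. That fit is given where it changes the call of a member or the count of a gene list. The study's design text calls the replicates independent, but what links arrays of 1 number is unstated.

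S100b rose with NF1 RNAi and fell part of the way back with U0126. Its intensity was 12993, 12935 and 12931 in NF1 RNAi + U0126 cells, 16975, 16554 and 16941 in NF1 RNAi cells, and 8641, 10327 and 10221 in Control RNAi cells. No array of one group overlapped any array of another, so the order NF1 RNAi, NF1 RNAi + U0126, Control RNAi necessarily held within each replicate number. The rise with NF1 RNAi was 0.79 ± 0.07, or 1.73-fold (95% interval 1.54 to 1.95; limma adjusted p = 0.000169). With U0126 the level was lower than in NF1 RNAi cells (difference −0.38 ± 0.07, adjusted p = 0.0132), and it stayed above Control RNAi cells by 0.42 ± 0.07 (adjusted p = 0.0028). The distance from control cells with the inhibitor was thus 52.5% of the distance without it. The 3 comparisons share their groups, so they are not independent of each other. S100b lay between percentiles 99.5 and 99.95 of its arrays, where array signal can flatten, and whether it did so here was not tested. The sequence before the annotated S100b gene is shown because this member had the clearest change. It is taken from RefSeq on assembly GRCr8, minus strand, chr20:12381160-12381331, and holds the 172 bases of the promoter window that lie outside the annotated gene.
S100b: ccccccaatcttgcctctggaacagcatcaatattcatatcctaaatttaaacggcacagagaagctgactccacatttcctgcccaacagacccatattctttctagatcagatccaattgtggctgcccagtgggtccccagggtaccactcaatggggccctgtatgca
It held no match to the Sox motif ACAAAG or ACAATG, the octamer ATGCAAAT bound by POU factors, the ETS motif CCGGAA or the AP-1 motif TGANTCA on either strand, nor to TATAAA. The same stretch of all 33469 promoter windows held a Sox motif in 18.1%, the octamer in 1.11%, an ETS motif in 6.99%, an AP-1 motif in 4.45% and TATAAA in 8.67%.

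Sox10 did not pass the test with NF1 RNAi and was slightly lower with U0126. Its levels were 11.25, 11.23 and 11.06 in NF1 RNAi + U0126 cells, 11.36, 11.41 and 11.37 in NF1 RNAi cells and 11.47, 11.37 and 11.36 in Control RNAi cells. The arrays with U0126 lay below all 6 others, while the NF1 RNAi and Control RNAi arrays overlapped. The difference between NF1 RNAi and Control RNAi cells was −0.02 ± 0.07, with a 95% interval of −0.18 to 0.13 (adjusted p = 0.880). With U0126 the level was −0.20 ± 0.07 relative to NF1 RNAi cells, which did not pass (adjusted p = 0.118). Relative to Control RNAi cells it fell (−0.22 ± 0.07, adjusted p = 0.0416). That call is narrow: it was lost when any 1 array other than NF1 RNAi + U0126 replicate 1 was left out (adjusted p = 0.0582 to 0.120), under median centring (0.0577), under quantile normalization (0.0683), without the replicate 1 arrays (0.0864) and in a fit of these 2 groups alone (0.0872). In fold terms the level was 0.859 times that of Control RNAi cells.

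Foxd3 fell with U0126 and did not pass with NF1 RNAi. Its intensity was 198, 178 and 195 in NF1 RNAi + U0126 cells, 286, 259 and 250.3 in NF1 RNAi cells and 247, 237 and 254 in Control RNAi cells. The 3 arrays with U0126 were the lowest of the 9, and the other groups overlapped. The difference was −0.47 ± 0.07 against NF1 RNAi cells (0.72 times their level, adjusted p = 0.00403) and −0.37 ± 0.07 against Control RNAi cells (0.775 times, adjusted p = 0.00486). Between NF1 RNAi and Control RNAi cells the difference was 0.11 ± 0.07, with an interval of −0.06 to 0.27 (adjusted p = 0.387). The 250 bases before the annotated start of Foxd3, shown because Foxd3 and S100b were the members that fell with U0126 in NF1 RNAi cells, are chr5:119450282-119450531 on the plus strand (RefSeq, GRCr8).
Foxd3: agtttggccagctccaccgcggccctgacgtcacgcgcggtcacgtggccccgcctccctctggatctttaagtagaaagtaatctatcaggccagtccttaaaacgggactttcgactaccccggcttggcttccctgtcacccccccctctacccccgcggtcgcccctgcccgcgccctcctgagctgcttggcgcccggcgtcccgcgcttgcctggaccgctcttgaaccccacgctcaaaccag
No motif of the set above was matched in it. In the 250 bases of all promoters a Sox motif was found in 25.3%, the octamer in 1.56%, an ETS motif in 12.6%, an AP-1 motif in 6.34% and TATAAA in 12.9%.

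Sox2 was higher in NF1 RNAi cells, with and without U0126, by 3 of its 4 probe sets, but none passed in the fit of all 9 arrays without the replicate block, and all 3 passed with it. The 4 are called a to d here, in order of falling signal. Probe set a read 12.19, 12.51 and 12.55 in NF1 RNAi + U0126 cells, 12.27, 12.51 and 12.67 in NF1 RNAi cells and 11.59, 12.10 and 12.23 in Control RNAi cells. Replicate 1 was the lowest array of each group. Probe set b read 11.32, 11.59 and 11.75 in NF1 RNAi + U0126 cells, 11.32, 11.55 and 11.70 in NF1 RNAi cells and 10.44, 11.16 and 11.32 in Control RNAi cells. Probe set c read 11.17, 11.51 and 11.71 with U0126, 11.32, 11.47 and 11.70 with NF1 RNAi alone and 10.02, 11.10 and 11.34 in Control RNAi cells. In all 3 the order of the replicates was the same in every group, and Control RNAi replicate 1 lay furthest below the rest. Probe set d read between 3.88 and 4.45 on all arrays, between percentiles 8.72 and 17.1 of the arrays, and at such a signal a change of the transcript may not be measurable. It differed by 0.18 ± 0.13 between NF1 RNAi and Control RNAi cells (adjusted p = 0.387).

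For NF1 RNAi against Control RNAi, the Sox2 differences were 0.51 ± 0.18 (probe set a), 0.55 ± 0.22 (probe set b) and 0.67 ± 0.30 (probe set c), and none passed without the block (adjusted p = 0.0739, 0.111 and 0.160). Within a replicate number the NF1 RNAi array was higher in 3 of 3 pairs for each of them, and for the dim probe set d as well. The groups did not overlap in probe set a, so any pairing of arrays would give this there. The differences within a number were 0.67, 0.41 and 0.44 for probe set a, 0.88, 0.40 and 0.37 for probe set b, and 1.29, 0.37 and 0.36 for probe set c. With the replicate block all 3 passed (adjusted p = 0.00202, 0.00722 and 0.0246). The size rests in part on replicate 1: without the single array Control RNAi replicate 1 the differences were 0.32, 0.28 and 0.28 for a, b and c, and none passed (adjusted p = 0.162, 0.222 and 0.310 without the block). With all replicate 1 arrays left out they were 0.42, 0.38 and 0.36, and probe set c no longer passed (adjusted p = 0.0118, 0.0288 and 0.0755 without the block). Probe set a also passed without Control RNAi replicate 3 (adjusted p = 0.0437), and with array weights a and b passed (0.0093 and 0.0219). As a measure of RNA integrity, the beta-actin signal at the 3′ end minus that at the 5′ end, in log2 units, came to 0.85 to 0.87 with U0126, 0.78 to 0.85 with NF1 RNAi, and 0.90, 0.62 and 0.60 in Control RNAi replicates 1, 2 and 3. For GAPDH this value was −0.06 to −0.05 with U0126, −0.10 to −0.02 with NF1 RNAi and −0.11 to 0.06 in Control RNAi cells. Control RNAi replicate 1, with the lowest Sox2, was the highest array in both controls, and the part of RNA integrity in the Sox2 result was not tested.

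Sox2 did not pass in NF1 RNAi + U0126 against NF1 RNAi cells. The differences between NF1 RNAi + U0126 and NF1 RNAi cells were −0.07 ± 0.18 (probe set a), 0.03 ± 0.22 (probe set b) and −0.03 ± 0.30 (probe set c), with adjusted p of 0.881, 0.963 and 0.968. Their 95% intervals were −0.46 to 0.33, −0.46 to 0.51 and −0.71 to 0.64, so changes of those sizes in either direction remain possible. With the replicate block the intervals were −0.24 to 0.11, −0.22 to 0.28 and −0.44 to 0.37. Against Control RNAi cells the NF1 RNAi + U0126 cells were higher by 0.44 ± 0.18, 0.58 ± 0.22 and 0.64 ± 0.30 (adjusted p = 0.0940, 0.0764 and 0.150), and all 3 passed with the block (adjusted p = 0.00266, 0.00415 and 0.0246). Without Control RNAi replicate 1 these differences were 0.25, 0.31 and 0.24, and none passed without the block (adjusted p = 0.223, 0.142 and 0.319). Foxd3 fell with U0126 and Sox2 did not pass, and whether their responses differ from each other was not tested. The 250 bases before the annotated Sox2 start, shown beside those of Foxd3, are chr2:119464881-119465130 on the plus strand (RefSeq, GRCr8), with the 1 ETS motif match in capitals.
Sox2: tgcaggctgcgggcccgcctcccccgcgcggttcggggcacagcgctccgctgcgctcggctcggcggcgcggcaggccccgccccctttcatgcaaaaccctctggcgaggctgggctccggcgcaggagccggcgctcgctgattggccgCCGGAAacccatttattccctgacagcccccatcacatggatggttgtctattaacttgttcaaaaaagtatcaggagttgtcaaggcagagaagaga
The match begins 98 bases before the start and was the only match of the set, and 12.6% of all promoters hold such a motif.

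Pou3f1 varied more among the arrays of a group (SD 0.44 to 0.50) than among the group means (SD 0.20). Its levels were 5.57, 6.20 and 6.45 in NF1 RNAi + U0126 cells, 5.54, 6.21 and 6.52 in NF1 RNAi cells and 6.92, 6.11 and 6.24 in Control RNAi cells. Control RNAi replicate 1 was the highest array of the 9, while replicate 1 was the lowest array in both other groups. The difference between NF1 RNAi and Control RNAi cells was −0.33 ± 0.31 (interval −1.03 to 0.37, adjusted p = 0.536), and with all replicate 1 arrays left out it had the opposite sign, 0.19 (adjusted p = 0.370). With U0126 the difference from NF1 RNAi cells was −0.02 ± 0.31 (interval −0.72 to 0.68, adjusted p = 0.981), and from Control RNAi cells −0.35 ± 0.31 (adjusted p = 0.443). The probe set read between percentiles 34.7 and 54.0 of its arrays, near where background weighs on the signal. For the promoters of Pou3f1 and Sox10 no entry was given in the sequence table.

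**Figure D1:**
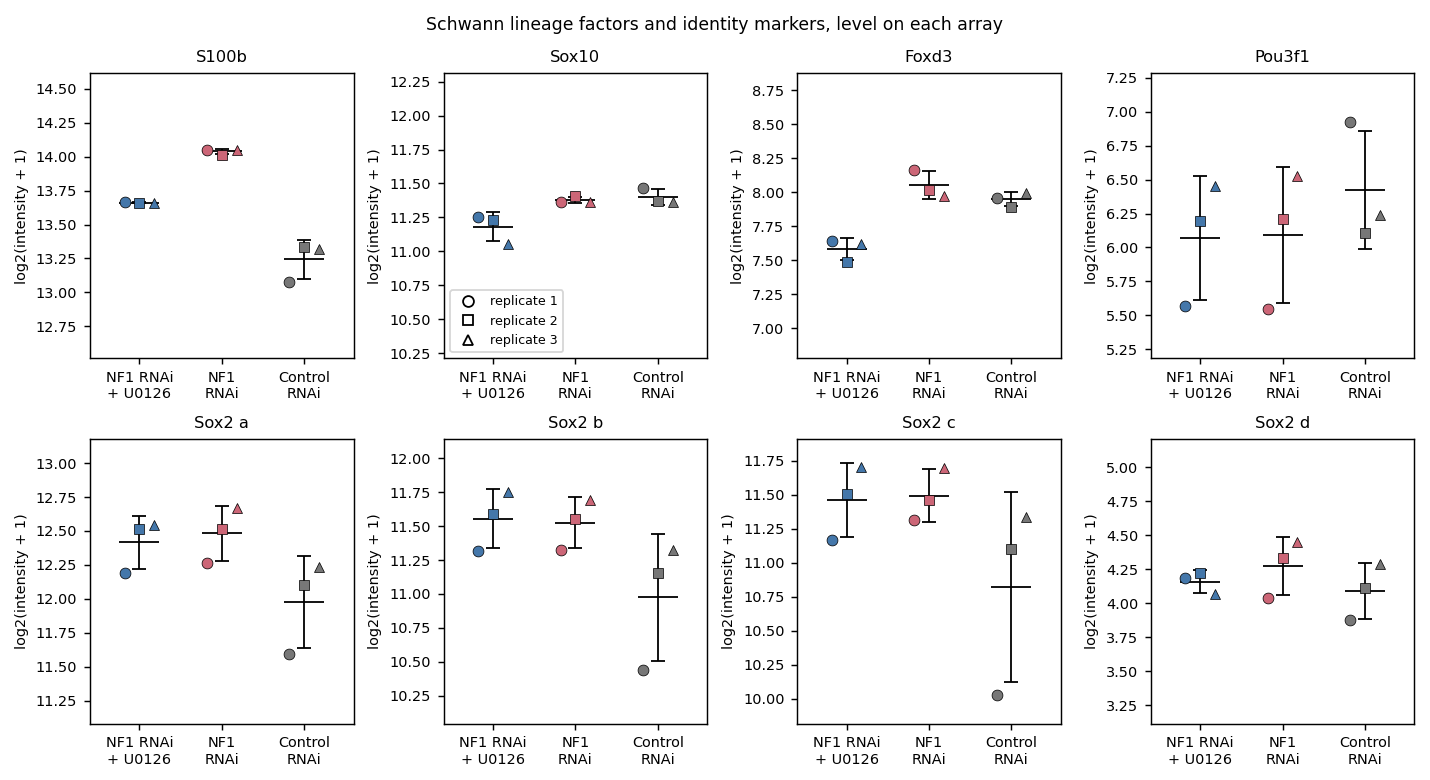
Level of each of the 8 probe sets on each of the 9 arrays, as log2(intensity + 1) on axes of equal height, with replicates 1, 2 and 3 as circles, squares and triangles and the mean ± SD of 3 arrays as bars. S100b separates all 3 groups, Sox10 and Foxd3 are lowest with U0126, and in the 3 brighter Sox2 probe sets replicate 1 is the lowest array of each group.

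Counted over the members, 1 of 8 probe sets passed in NF1 RNAi against Control RNAi cells (S100b, higher), in a comparison where 20.4% of all probe sets passed, 10.6% higher and 9.84% lower. With the replicate block 4 of 8 passed, all higher (S100b and 3 of Sox2), against 25.8% of all probe sets (13.2% higher and 12.6% lower). The 4 Sox2 probe sets measure 1 gene, so these are 2 genes of 5. In NF1 RNAi + U0126 against NF1 RNAi cells 2 of 8 passed, both lower (S100b and Foxd3), against 10% of all probe sets, 4.45% higher and 5.58% lower. The block also gave S100b and Foxd3, against 14.6% of all probe sets (6.44% higher and 8.12% lower). In NF1 RNAi + U0126 against Control RNAi cells 3 of 8 passed, 1 higher (S100b) and 2 lower (Sox10 and Foxd3), against 28.1% of all probe sets, 14.2% higher and 13.9% lower. With the block 6 of 8 passed there, 4 higher and 2 lower, against 33% of all (16.6% higher and 16.5% lower). The arrays of the compared groups did not overlap in 2, 3 and 3 of the 8 probe sets, against 35.3%, 28.6% and 41% of all probe sets. The median log2 difference of the 8 probe sets was 0.34, −0.09 and 0.24 in the 3 comparisons, beside 0.02, 0.02 and 0.05 over all probe sets, and the first and last are set largely by the Sox2 probe sets. Without the replicate 1 arrays the counts were 3, 2 and 5 of 8, where 6344, 4028 and 9345 of all 31042 probe sets passed.

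**Figure D2:**
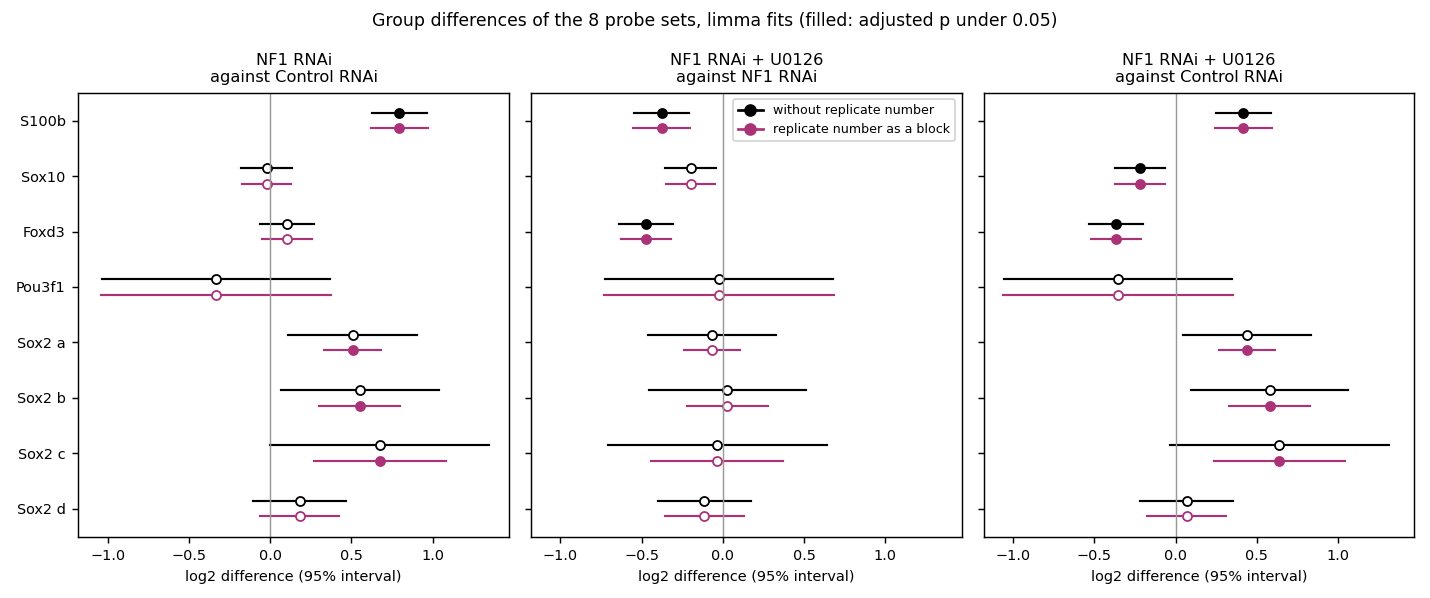
Log2 differences of the 8 probe sets in the 3 comparisons with 95% intervals, from the limma fit without the replicate number (black) and with it as a block (purple), where a filled point passed an adjusted p of 0.05. The block narrows the Sox2 intervals, for probe set a from 0.11 to 0.90 to 0.33 to 0.68 with NF1 RNAi, and leaves those of S100b, Sox10 and Foxd3 close to what they were.

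**Figure D3:**
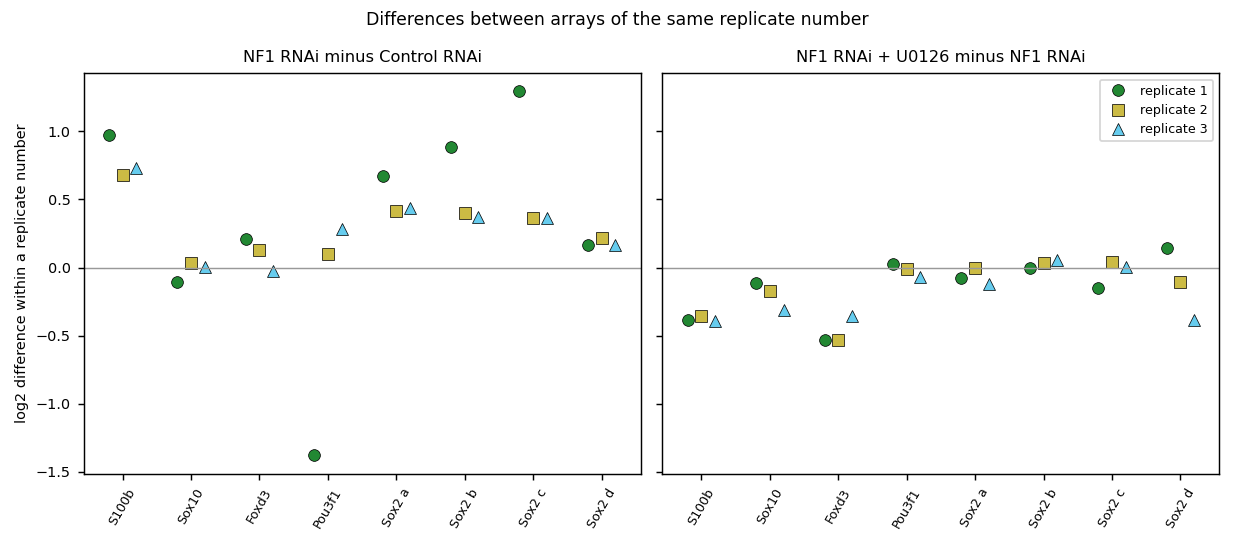
Log2 difference between arrays of the same replicate number for each probe set, with NF1 RNAi minus Control RNAi on the left and NF1 RNAi + U0126 minus NF1 RNAi on the right. With NF1 RNAi the 3 pairs of S100b lie between 0.68 and 0.97 and those of Pou3f1 between −1.38 and 0.28, and with U0126 the 3 pairs of S100b lie between −0.39 and −0.36.

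The rise of S100b was set beside the rest of its family. None of 13 other genes on an S100 list (12 S100 genes and S100pbp, which encodes an S100-binding protein) rose with NF1 RNAi and 5 fell, with a median of −0.25; at an unadjusted p of 0.05 these counts were 0 and 8, and with the replicate block 0 and 7. Over the 14213 genes, each taken at its brightest probe set, 24.6% passed in that comparison, 12.1% higher and 12.4% lower, with a median of 0.02. With the block 30.2% of genes passed, 14.7% higher and 15.5% lower. Among those that fell were S100a13 (−0.84 ± 0.10, adjusted p = 0.00043), S100a11 (−0.78 ± 0.10, adjusted p = 0.000998) and S100a1 (−0.72 ± 0.11, adjusted p = 0.0019). S100a11, for example, read 13.01, 13.03 and 12.86 in NF1 RNAi cells, against 13.71, 13.75 and 13.76 in Control RNAi cells, and the groups did not overlap. With U0126 added, 1 S100 gene rose and 2 fell relative to NF1 RNAi cells, among them S100a10 (−0.82 ± 0.11, adjusted p = 0.00156), in a comparison where 12.4% of genes passed, 5.95% higher and 6.44% lower. With the block 1 rose and 3 fell there, against 17.6% of genes, 8.58% higher and 9.03% lower. The calls of S100a5 (0.27 ± 0.07) and S100a11 (−0.38 ± 0.10) in that comparison were lost in 7 of the 9 fits that leave out 1 array. Against Control RNAi cells, 6 of the 13 fell with U0126 and none rose in limma (0 also at an unadjusted p of 0.05), led by S100a11 (−1.16 ± 0.10), S100a10 (−1.11 ± 0.11) and S100a16 (−0.82 ± 0.07), where 33.5% of genes passed, 16.6% higher and 16.9% lower. With the block none rose and 8 fell in that comparison, against 38.6% of genes, 19.1% higher and 19.5% lower. Among S100b and these 12 S100 genes, S100b alone passed as higher than Control RNAi cells in either NF1 RNAi group. In each group 4 of the 13 listed genes had a mean under a log2 level of 6, where a change may not be measurable.

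Of 13 measured genes listed as Sox10 targets, 3 fell with NF1 RNAi, where 12.4% of all genes fell and Sox10 itself did not pass. The list of 16 held myelin and other genes known to be bound or activated by Sox10, together with Nab1 and Nab2, the corepressors of Egr2. With NF1 RNAi none rose in limma (1 at an unadjusted p of 0.05, and 1 with the block, against 14.7% of genes) and 3 fell (median 0.01): the peripheral myelin protein gene Pmp22 (−1.96 ± 0.35, adjusted p = 0.00446), the myelination regulator gene Egr2 (−1.02 ± 0.14, adjusted p = 0.00109) and the periaxin gene Prx (−0.62 ± 0.13, adjusted p = 0.0081). Pmp22 read 9.92, 11.23 and 11.44 in NF1 RNAi cells, against 12.70, 12.81 and 12.96 in Control RNAi cells, with no overlap. With U0126 added, 3 fell, namely Erbb3, the neuregulin co-receptor gene (−1.08 ± 0.22, adjusted p = 0.0138), Nab2 (−0.78 ± 0.15, adjusted p = 0.00991) and Egr2 (−0.56 ± 0.14, adjusted p = 0.0352), while 1 gene of the list rose, against 6.44% of all genes lower and 5.95% higher. With the block 1 rose and 4 fell. Erbb3 lost its call without NF1 RNAi replicate 2 or 3, and Egr2 in 5 of the 9 fits that leave out 1 array. Against Control RNAi cells, 2 rose and 4 fell with U0126 (2 and 6 with the block), where 16.6% of genes were higher and 16.9% lower, and the largest changes were those of Pmp22 (−1.96 ± 0.35), Egr2 (−1.58 ± 0.14) and Nab2 (−0.77 ± 0.15). A second Egr2 probe set, at a log2 level of at most 4.68, passed in none of the 3 comparisons.

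**Figure D4:**
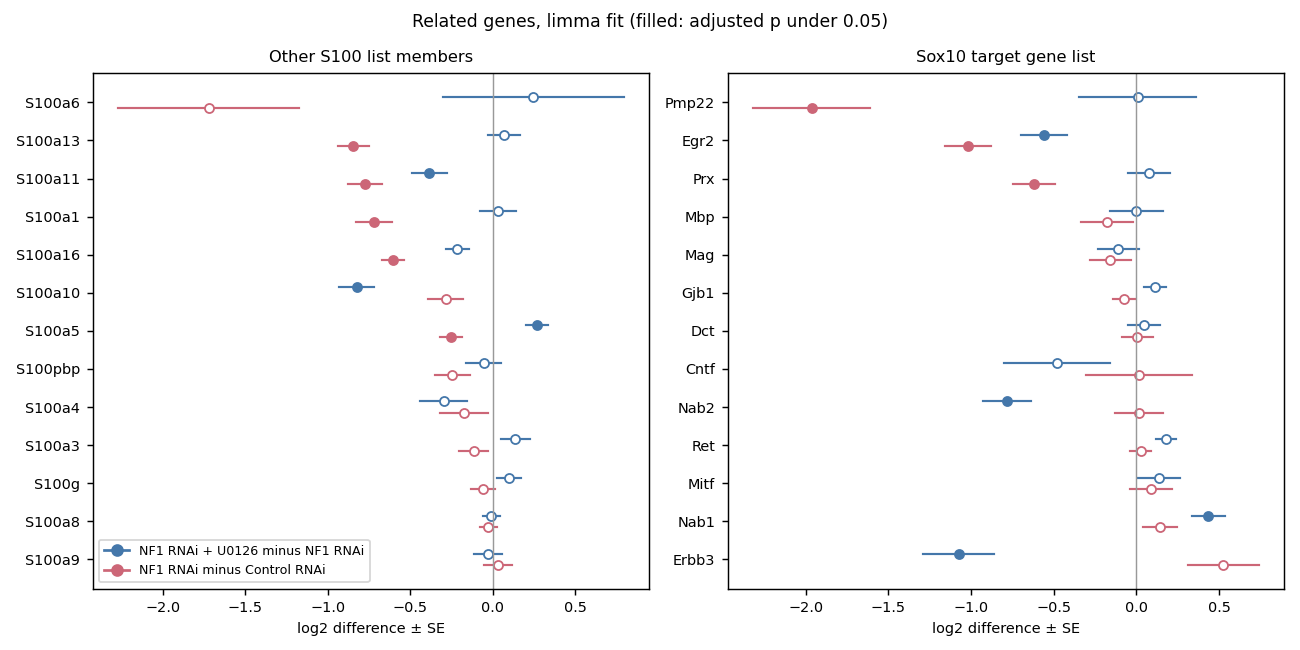
Log2 differences ± SE of 13 genes on the S100 list (left) and 13 measured genes on the Sox10 target list (right), for NF1 RNAi + U0126 minus NF1 RNAi (blue) and NF1 RNAi minus Control RNAi (red), where a filled point passed an adjusted p of 0.05. All filled red points lie below 0, at −0.84 for S100a13 and −1.96 for Pmp22 among others.

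Markers of the Schwann precursor and immature stages, where Sox2 is normally high, were mixed with NF1 RNAi. Of 16 listed, 13 were measured, and 3 rose and 4 fell (median 0.14; 4 and 4 with the block), where 12.1% of genes were higher and 12.4% lower. The falls were led by Gfra3, a receptor subunit for artemin (−2.36 ± 0.19, adjusted p = 7.97e-05), and by the adhesion molecule genes L1cam (−2.04 ± 0.13, adjusted p = 3.57e-05) and Ncam1 (−1.15 ± 0.24, adjusted p = 0.0099). L1cam read 8.48, 9.04 and 8.78 in NF1 RNAi cells, against 10.88, 10.81 and 10.72 in Control RNAi cells. With U0126 added, none rose in limma (0 at an unadjusted p of 0.05, 1 with the block) and 7 of 13 fell relative to NF1 RNAi cells (median −0.63; 8 with the block), where 6.44% of genes fell. L1cam fell again (−1.65 ± 0.13, adjusted p = 0.000176), as did the glial filament gene Gfap (−1.29 ± 0.32, adjusted p = 0.0322), a call that 6 of the 9 fits without 1 array did not keep. Against Control RNAi cells 1 rose and 6 fell (median −0.55; 2 and 8 with the block), where 16.6% of genes were higher and 16.9% lower, with L1cam at −3.69 ± 0.13, Gfra3 at −3.11 ± 0.19 and Gfap at −1.95 ± 0.32.

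Neural crest regulators that act beside Sox10 and Foxd3 rose more often than they fell with NF1 RNAi. Of 22 listed, 17 were measured, and 7 rose and 1 fell (median 0.10), against 12.1% and 12.4% of all genes. Tfap2b, an AP-2 factor gene, rose by 0.68 ± 0.11 (adjusted p = 0.00247), with 8.01, 8.31 and 8.10 in NF1 RNAi cells, against 7.50, 7.51 and 7.36 in Control RNAi cells. Snai1, a factor of epithelial to mesenchymal transition, rose by 0.62 ± 0.15 (adjusted p = 0.0157), a call lost without Control RNAi replicate 3, NF1 RNAi replicate 1 or NF1 RNAi replicate 2. Mycn fell (−0.95 ± 0.22, adjusted p = 0.0134, lost without NF1 RNAi replicate 3). With U0126 added, 3 rose and 2 fell (4 and 2 with the block), where 5.95% of genes were higher and 6.44% lower. Tfap2a rose by 0.90 ± 0.09 (adjusted p = 0.000452), Mycn by 0.92 ± 0.22 (adjusted p = 0.0275, a call lost without any 1 of the NF1 RNAi arrays), and Snai1 fell (−0.95 ± 0.15, adjusted p = 0.00381), which put it with Foxd3 among crest factors lower with the inhibitor. Tfap2a read 9.15, 8.93 and 9.13 with U0126, 8.25, 8.09 and 8.15 with NF1 RNAi alone and 8.27, 8.05 and 8.03 in Control RNAi cells. Against Control RNAi cells 6 rose and 1 fell (7 and 2 with the block), where 16.6% of genes were higher and 16.9% lower, led by Tfap2c (1.24 ± 0.17), Tfap2a (0.95 ± 0.09) and Zeb1 (0.91 ± 0.15).

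The pathways of the members without a named probe set were read through their other genes. In the endothelin pathway of Ednrb, 5 of 7 listed genes were measured, and 2 fell with NF1 RNAi, where 12.4% of genes fell. The endothelin-converting enzyme genes Ece1 (−0.45 ± 0.08, adjusted p = 0.0048) and Ece2 (−0.25 ± 0.07, adjusted p = 0.0273) fell with NF1 RNAi, none passed with U0126 against NF1 RNAi cells in limma (0 with the block, 1 at an unadjusted p of 0.05), and Ece1 stayed below Control RNAi cells (−0.40 ± 0.08, adjusted p = 0.0059). The Ece2 call was lost without Control RNAi replicate 1 or any 1 NF1 RNAi array. Cdh19 belongs to the cadherins, which were listed together with the catenins. Among 17 measured genes of this list 2 rose and 3 fell with NF1 RNAi (median 0.04), and 2 rose and 5 fell with the block. In the fit without the block 12.1% of all genes were higher and 12.4% lower. Cdh3, P-cadherin, rose in both steps, by 1.01 ± 0.24 with NF1 RNAi (adjusted p = 0.0168, lost without Control RNAi replicate 2) and by a further 2.09 ± 0.24 with U0126 (adjusted p = 0.000911). Its levels were 9.22, 8.91 and 8.94 with U0126, 7.59, 6.68 and 6.54 with NF1 RNAi alone and 6.11, 5.77 and 5.88 in Control RNAi cells. With NF1 RNAi, Ctnnd1, which encodes p120-catenin, fell (−0.91 ± 0.13, adjusted p = 0.00157), as did Cdh10 (−0.86 ± 0.09, adjusted p = 0.000298). With U0126 against NF1 RNAi cells 2 rose and 2 fell (3 and 3 with the block), where 5.95% of genes were higher and 6.44% lower, with Cdh13 at 0.87 ± 0.08 (adjusted p = 0.000345) and Jup, plakoglobin, at −0.49 ± 0.06 (adjusted p = 0.00155). Against Control RNAi cells 2 rose and 4 fell with U0126 (3 and 7 with the block), where 16.6% of genes were higher and 16.9% lower, with Cdh3 at 3.10 ± 0.24, Cdh2 (N-cadherin) at −1.31 ± 0.33 and Cdh13 at 1.16 ± 0.08. The Cdh2 call there was lost without NF1 RNAi + U0126 replicate 2 or 3, while of 2 further Cdh2 probe sets 1 also passed (−1.26) and 1 did not (0.03).

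The label of the cells was checked against 8 Schwann markers, of which 5 were measured. Sox10 (11.06 to 11.47), S100b (13.08 to 14.05), Ngfr, the p75 receptor gene (12.32 to 13.33), and Erbb3 (8.75 to 10.41) were at or above percentile 76.1 of every array. The Egr2 signal was low (5.14 to 6.97). Markers of other cells that the cultures could hold were also read, since bulk RNA cannot tell fewer cells of a type from less RNA per cell. Of 10 fibroblast markers 1 rose and 2 fell with NF1 RNAi (1 and 3 with the block), against 12.1% and 12.4% of all genes, with Col3a1 at −2.06 ± 0.36, Mfap5 at −1.83 ± 0.22 and Ogn at 0.68 ± 0.17 (lost without Control RNAi replicate 2 or 3 or NF1 RNAi replicate 1), and the summed intensity of the list was 23092 to 31046 with U0126, 30477 to 31609 with NF1 RNAi and 37222 to 39286 in Control RNAi cells. Such a sum rests mostly on the brightest genes, and the median difference of the list with NF1 RNAi was 0.01, beside 0.02 over all genes. The sum was lower with NF1 RNAi, where S100b rose. In NF1 RNAi + U0126 cells the sum was likewise below that of Control RNAi cells, and S100b was above its level there. Relative to NF1 RNAi cells S100b fell with U0126, and the sums of these groups overlapped. The part of fibroblast content in the S100b changes was not tested. The summed intensity of 8 measured melanocyte markers, cells that share Sox10 and S100b with Schwann cells, was 4530 to 4761 with U0126, 805 to 844 with NF1 RNAi and 737 to 761 in Control RNAi cells. Tyrp1 (6.41 ± 0.11) and Kit (1.53 ± 0.32) were the 2 that rose with U0126 against NF1 RNAi cells (2 rose and 1 fell with the block), the call of Kit being lost without NF1 RNAi replicate 1 or 2 or NF1 RNAi + U0126 replicate 2 or 3, while Tyr, Mlana, Dct and Gpr143 stayed at group means of 4.33 to 5.20. Of all genes, 5.95% were higher and 6.44% lower with U0126 against NF1 RNAi cells (8.58% and 9.03% with the block), which holds for the lists below as well. None of the 8 melanocyte markers passed with NF1 RNAi in limma, and 1 rose and 1 fell with the block. Of 9 macrophage markers, 6 to 7 had a group mean under a log2 level of 6, and 1 rose with NF1 RNAi (Laptm5, 0.33 ± 0.06) and 1 with U0126 added (Cd68, 0.90 ± 0.12). Of 7 measured endothelial and mural markers none passed in limma in any comparison (1 in each at an unadjusted p of 0.05, and 1 lower in each comparison with Control RNAi cells under the block). Of 8 neuron markers 1 rose and 3 fell with NF1 RNAi, against 12.1% and 12.4% of all genes, with Tubb3 at −2.30 ± 0.34, Nefl at −2.25 ± 0.34 and Nefm at −2.03 ± 0.24, and the filament genes rose with U0126 added (Nefm, 1.55 ± 0.24, and Nefl, 1.28 ± 0.34, a call lost in 7 of the 9 fits without 1 array; 2 rose and 1 fell with the block).

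For each measured member, the 3 genes whose level over the 9 arrays was most like it were found by Pearson's r among 9966 other genes with a mean log2 level of at least 6. The arrays fall into groups and share replicate numbers, so these values describe likeness only. S100b was most like Epdr1 (r = 0.991), Synm, the intermediate filament gene of synemin (0.991), and Ube2b (0.989), all over 9 arrays. Sox2 was most like Pds5b, a cohesin regulator gene (r = 0.992), Arhgap11a (0.988) and the transcriptional coregulator gene Cited2 (0.986). Foxd3 was most like Cmtm5 (r = 0.972), Pdlim4 (0.971) and Plaur, the urokinase receptor gene (0.969). Sox10 was most like Slc22a15 (r = 0.977), the autophagy gene Atg5 (0.965) and Dxo (0.962), and Pou3f1 was most like Fgfrl1 (r = 0.930), Gnai2 (0.924) and Flrt3 (0.924).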

How the data were processed

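Total RNA from 9 samples was measured on Affymetrix rat arrays. The deposited values are intensities on a linear scale, made with RMA per the submitters' processing notes, which name no software version. The table holds 31099 probe sets, and 57 control probe sets were left out. The platform annotation paired 20826 of the rest with 1 gene, 436 with several and 9780 with none listed. Symbols were updated through RefSeq (GRCr8), which gave 14213 genes.

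Values were taken as log2(value + 1), without a filter on low values; the added 1 lowers the fold changes of dim probe sets slightly (Sox2 probe set d with NF1 RNAi, 0.18 with it and 0.19 without). The main test was limma (version 3.58.1, R version 4.3.3), fitting 1 mean per group to the 9 arrays with moderated variances, 6 residual degrees of freedom, two-sided p-values and Benjamini-Hochberg adjustment over 31042 probe sets. Deviations from group means correlated over probe sets in all 9 pairs of arrays with the same replicate number (r = 0.14 to 0.59, and −0.48 to 0.37 for different numbers). Among replicates 2 and 3 alone, r was 0.14 to 0.33 for the same number and 0.12 to 0.37 for different numbers. A link by number is thus not shown for those replicates. The fit with the number as a block (4 degrees of freedom) is given where it changes the call of a member or the count of a gene list. Other genes are represented by their probe set with the highest mean. Of 34 other readings of the named genes by further probe sets, 27 passed in the same direction and 7 did not pass.

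The members, lists and tests were chosen with earlier results of these data known. Genes named are the members, Nf1, up to 3 passing genes per list and comparison with the largest change, and the 3 genes most like each member. The Schwann marker Ngfr and the melanocyte markers Tyr, Mlana, Dct and Gpr143 are named outside that rule, for their levels. The sequence table held promoters for 3 of the 5 measured members. In simulated data with 31042 probe sets, made for the NF1 RNAi and Control RNAi comparison, the test recovered 51% of 100 probe sets changed by 0.5 and 90% of 100 changed by 1, with 5.37% of its calls on unchanged ones. The noise was drawn independently for each array, without the shift of replicate 1. Far fewer probe sets were changed than passed in the real comparison. These shares check the code and do not give the recovery or false calls in the real data. Array number limits the precision. Python 3.11.15, pandas 2.3.3 and matplotlib 3.10.9 were used.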

Additional observations from a re-analysis of the deposited data

How the results depend on the processing

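S100b kept its direction in all 3 comparisons under every alternative run, and its calls were lost only to a 2-fold limit and, for U0126 against NF1 RNAi cells, to an adjusted p of 0.01. Foxd3 lost its calls only to the 2-fold limit. The count of member probe sets passing with NF1 RNAi against Control RNAi was 4 with the replicate block, 3 with array weights, 3 with all replicate 1 arrays left out and 0 with the 2-fold limit, against 1 otherwise, and 1 to 2 when single arrays were left out, 2 of 8 being reached without Control RNAi replicate 3. For NF1 RNAi + U0126 against NF1 RNAi it was 1 at an adjusted p of 0.01 and 0 with the 2-fold limit, against 2 otherwise, the block included. For NF1 RNAi + U0126 against Control RNAi it was 6 with the replicate block, 5 with array weights, 5 without the replicate 1 arrays, 0 with the 2-fold limit, 2 under median centring, quantile normalization, a fit of the 2 groups alone and an adjusted p of 0.01, 2 to 3 when single arrays were left out, and 3 otherwise. The replicate block changed the call of Sox2 probe sets a, b and c in both comparisons with Control RNAi cells and of no other member. The cause of these moves was not tested, apart from the stricter thresholds, which lower counts by construction.

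No value that passed changed sign. Some that did not pass did. Sox10 with NF1 RNAi was 0.014 with array weights, 0.020 without the replicate 1 arrays and −0.040 to 0.012 when single arrays were left out. Pou3f1 with NF1 RNAi was 0.011 with array weights and 0.19 without the replicate 1 arrays, and with U0126 against Control RNAi cells 0.15 without them. With U0126 against NF1 RNAi cells, leaving out single arrays gave −0.30 to 0.23 for Pou3f1, −0.16 to 0.11 for Sox2 probe set c, −0.17 to 0.046 for probe set a and −0.073 to 0.14 for probe set b, and probe set c was 0.0025 under quantile normalization and 0.023 without the replicate 1 arrays. Sox2 probe set d with U0126 against Control RNAi cells was −0.053 without the replicate 1 arrays and −0.040 to 0.17 when single arrays were left out. Over all probe sets, array weights gave 11541, 4742 and 13461 calls in the 3 comparisons, against 6338, 3113 and 8710. An adjusted p of 0.01 gave 3365, 1363 and 5463, and the 2-fold limit 909, 513 and 1521. For U0126 against NF1 RNAi cells, 1676 passed without NF1 RNAi replicate 2, 2049 without NF1 RNAi replicate 3 and 1897 without NF1 RNAi + U0126 replicate 2.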
